A study of Homo sapiens with 3 samples.

Results

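The neutrophil-attracting CXC chemokines CXCL1, CXCL2, CXCL3, CXCL5, CXCL6, CXCL8 (named IL8 in the array annotation) and PPBP were examined on 3 expression arrays. The 7 genes were chosen by name, with earlier results of the same arrays known, and every probe carrying 1 of these symbols was taken. Each gene had 1 probe, which gave 7 of 24454 gene probes. By title, description and source the arrays carry RNA of HSC-3, an established human tongue squamous carcinoma line, grown with 10% serum. The treatment label names the mouse muscle line C2C12 instead, and the cells were taken as HSC-3. Each condition is 1 array without a replicate. The untransfected array holds cells that received no plasmid, the GFP array cells given an expression plasmid for green fluorescent protein, and the DKK3 array cells given a plasmid for full-length DKK3 with an HA tag. RNA of the transfected cells was taken 24 hours after transfection, and promoter and dose of the plasmids are not given in the sources used here. The untransfected cells serve as the state without plasmid, and the GFP cells as the control for receiving one.

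CXC chemokines of this family carry the residues glutamate, leucine and arginine ahead of their first cysteine and draw neutrophils by binding the receptors CXCR1 and CXCR2. CXCL1, CXCL2 and CXCL3 are the closely related GRO proteins, CXCL5 and CXCL6 form another close pair, CXCL8 is interleukin-8, and PPBP is a platelet protein from which the neutrophil-activating peptide NAP-2 is cut. Epithelial and squamous carcinoma cells are known to switch on CXCL8 and the GRO genes through NF-κB and AP-1, and their mRNAs are short-lived because decay factors bind AU-rich elements in them.

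The 150 bases ahead of each gene start are shown because the family shares an NF-κB-type motif there while its members differed widely on the arrays. The sequences are from RefSeq (GRCh38.p14), all 7 members were matched by symbol, and each is written 5′ to 3′ along the gene's own strand up to the base before the start. Capitals mark the motif GGAATTTCC, searched on both strands.
CXCL8 (chr4:73740419-73740568, + strand): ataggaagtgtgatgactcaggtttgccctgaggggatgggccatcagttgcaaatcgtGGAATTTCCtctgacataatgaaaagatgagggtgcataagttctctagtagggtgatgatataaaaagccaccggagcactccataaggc
CXCL2 (chr4:74099196-74099345, - strand): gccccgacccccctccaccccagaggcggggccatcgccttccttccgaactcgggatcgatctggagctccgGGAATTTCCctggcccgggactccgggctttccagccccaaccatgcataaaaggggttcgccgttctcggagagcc
CXCL1 (chr4:73869243-73869392, + strand): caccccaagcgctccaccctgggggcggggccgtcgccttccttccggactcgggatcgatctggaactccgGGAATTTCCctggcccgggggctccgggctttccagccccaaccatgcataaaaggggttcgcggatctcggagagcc
CXCL3 (chr4:74038690-74038839, - strand): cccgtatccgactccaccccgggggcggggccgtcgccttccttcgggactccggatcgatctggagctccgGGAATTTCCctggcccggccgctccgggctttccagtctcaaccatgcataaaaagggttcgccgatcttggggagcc
CXCL6 (chr4:73836528-73836677, + strand): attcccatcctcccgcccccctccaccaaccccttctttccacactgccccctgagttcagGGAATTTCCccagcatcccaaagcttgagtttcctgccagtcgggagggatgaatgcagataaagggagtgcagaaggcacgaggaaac
CXCL5 (chr4:73998678-73998827, - strand): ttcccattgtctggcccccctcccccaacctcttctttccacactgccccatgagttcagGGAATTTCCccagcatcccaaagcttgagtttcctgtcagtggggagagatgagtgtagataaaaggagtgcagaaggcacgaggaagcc
PPBP (chr4:73988191-73988340, - strand): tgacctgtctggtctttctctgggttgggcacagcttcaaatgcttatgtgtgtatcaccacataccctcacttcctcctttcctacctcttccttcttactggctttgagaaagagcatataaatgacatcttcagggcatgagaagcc

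The capitals mark a match in 6 of the 7 members and none in PPBP. Of 35116 RefSeq gene starts 0.253% hold this motif within 150 bases upstream, or 89 starts, these 6 among them. The motif was shown because the family shares it, so this count and share describe that spelling and test nothing. Matches within the close subgroups lie in sequences that are alike throughout and are not separate findings. Other spellings of NF-κB motifs are not given here, for PPBP included. The match begins 91 bases ahead of the start in CXCL8, 90 in CXCL5, 89 in CXCL6, 78 in CXCL1 and CXCL3 and 77 in CXCL2. The AP-1 motif TGANTCA, found in 4.17% of all starts, is matched in CXCL8 alone, where TGACTCA begins 137 bases upstream. The GC box GGGCGG, in 36.8% of all starts, is matched in CXCL1, CXCL3 and CXCL6. These matches are descriptions of letters, and binding was not measured.

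The upstream stretches fall into the same subgroups as the proteins. In global alignments CXCL5 and CXCL6 were 89.4% identical, CXCL1 and CXCL2 88.7%, CXCL1 and CXCL3 88.1%, and CXCL2 and CXCL3 86.1%. CXCL8 shared between 43.6% (with CXCL2) and 50.6% (with PPBP) with the others.

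**Figure D1:**
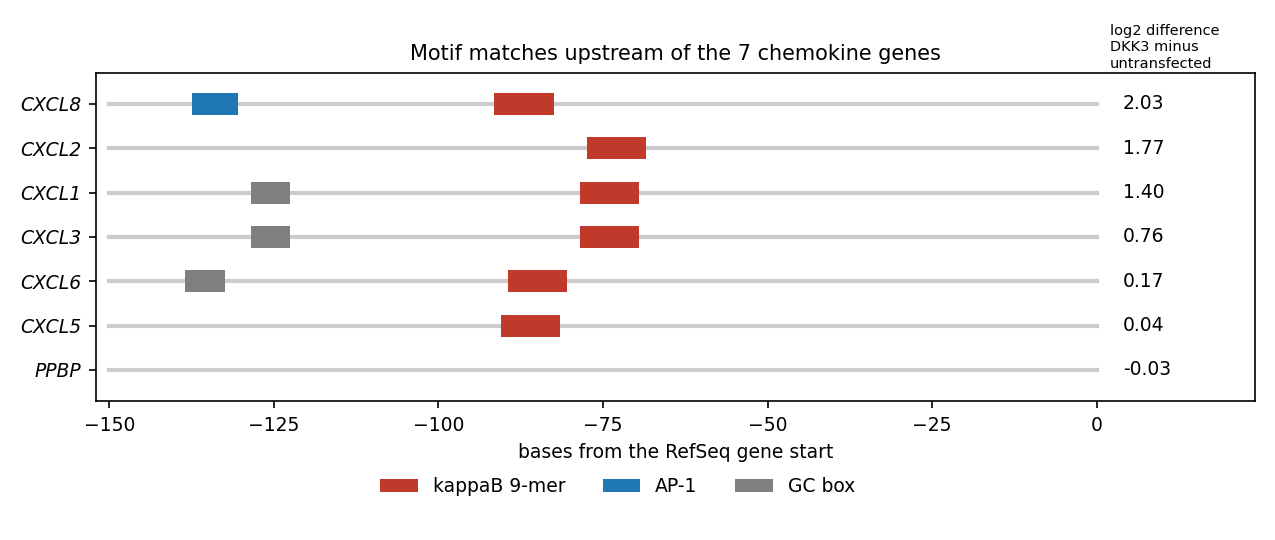
The x axis gives bases from the RefSeq gene start, each row is 1 member, and boxes mark matches to the motif GGAATTTCC (labelled kappaB 9-mer), the AP-1 motif and the GC box. The right column gives the log2 difference between the DKK3 and untransfected arrays, from 2.03 for CXCL8 to -0.03 for PPBP, and CXCL5 and CXCL6 hold the red box with values of 0.04 and 0.17.

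The values are median spot intensities of 1-colour arrays, and with so few arrays each is known only roughly. A probe was counted as detected above the mean plus 2 SD of the blank spots, a limit of 40.81 intensity units for the untransfected, 33.8 for the GFP and 36.58 for the DKK3 array. Differences between arrays are on the log2 scale after background correction and quantile normalization, in which an added offset of 50 makes the differences of dim probes smaller. As a scale of error without replicates, each difference is given with the robust SD of the same difference over the 500 other probes nearest in mean brightness. It covers the spread between these 2 arrays, real differences of those probes included, and not the spread between cultures. Of the positive controls, each printed on 24 spots, 1 varied within the arrays by 5.97% (untransfected), 5.88% (GFP) and 6.11% (DKK3), and the other by 9.57%, 8.82% and 11.9% (coefficient of variation). The probe of the transfected gene DKK3 read 538.8 in untransfected cells, 749.4 with GFP and 64328 with DKK3, which matches the labels. All 7 chemokine probes were detected on all 3 arrays at this limit, though 3 of them barely. Of all 24454 gene probes, 18012 were detected on the untransfected, 17226 on the GFP and 17352 on the DKK3 array. None of the 7 lies in printing blocks 22 to 24, where the median difference of the DKK3 array from the untransfected array was -0.062 against 0.001 in the other blocks.

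**Figure D2:**
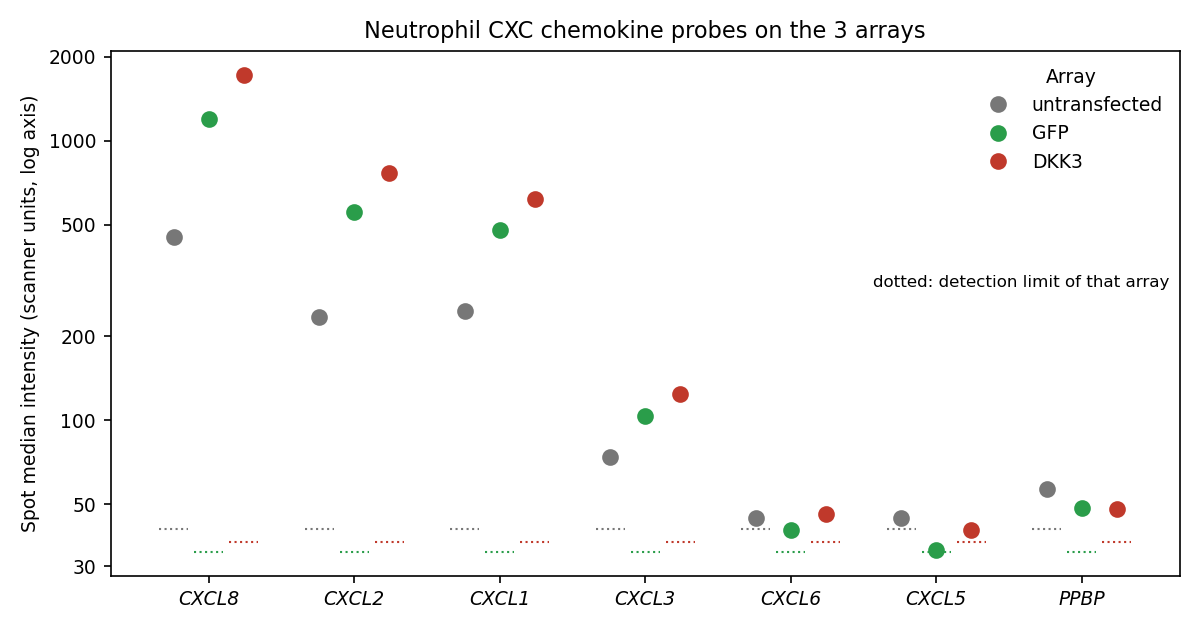
Points are the spot intensity of each member's probe on the untransfected (grey), GFP (green) and DKK3 (red) array on a log axis, and dotted lines are the detection limit of each array. CXCL8, CXCL2, CXCL1 and CXCL3 stand in the order untransfected, GFP, DKK3 from low to high, while CXCL6, CXCL5 and PPBP lie close to the limits. Heights of different probes are not comparable with each other.

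CXCL8, the founding neutrophil chemokine, was the member that differed most. Its probe read 451.5 in untransfected cells, 1198 with GFP and 1724 with DKK3, and the authors' deposited table lists it at 210, 489 and 818. Both transfected arrays were above the untransfected array, and the DKK3 array was the highest. GFP was 1.31 above untransfected on the log2 scale, or 2.48-fold, with a robust SD of 0.205 over probes of like brightness. DKK3 was 2.03 above untransfected, or 4.09-fold, with a robust SD of 0.198. DKK3 was 0.72 above GFP, or 1.65-fold, with a robust SD of 0.183. The probe ranked at place 13 of 18121 from the top for DKK3 against untransfected, 20 of 18076 for GFP against untransfected and 34 of 17579 for DKK3 against GFP.

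The GRO genes CXCL2 and CXCL1 stood in the same order across the arrays as CXCL8, at smaller distances. CXCL2 (GROβ) read 233.3 untransfected, 556.3 with GFP and 764.3 with DKK3. It was 1.14 ± 0.179 (robust SD of like-bright probes) above untransfected with GFP and 1.77 ± 0.179 with DKK3, and DKK3 was 0.63 ± 0.150 above GFP. In folds these are 2.21, 3.41 and 1.55. CXCL1 (GROα) read 246.3, 481.1 and 618.5 in the same order of arrays. Its differences were 0.87 ± 0.178 with GFP and 1.40 ± 0.181 with DKK3 against untransfected, or 1.82-fold and 2.64-fold, and 0.53 ± 0.159 between DKK3 and GFP, or 1.45-fold.

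CXCL3 (GROγ), the dimmest of the GRO probes, followed the same order. It read 74 untransfected, 103.8 with GFP and 124.2 with DKK3, which is 1.81, 3.07 and 3.40 times the detection limit of each array. GFP was 0.46 ± 0.083 and DKK3 0.76 ± 0.098 above untransfected, and DKK3 was 0.30 ± 0.121 above GFP. This last difference is just above 0.27, the value below which lie 97.5% of the probes of like brightness. With the mean of the blanks subtracted in place of normexp and its offset, and median in place of quantile scaling, the CXCL3 differences from untransfected became 0.94 with GFP and 1.48 with DKK3, so that the DKK3 value passed 2-fold.

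The sequences of the probes were not used here, and the GRO mRNAs resemble one another closely, so signal shared among the CXCL1, CXCL2 and CXCL3 probes cannot be told apart from the genes' own levels.

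CXCL6, CXCL5 and PPBP were near the floor of the arrays and none reached 2-fold in any comparison. CXCL6 (granulocyte chemotactic protein 2) read 44.78 untransfected, 40.58 with GFP and 46.03 with DKK3, or 1.10, 1.20 and 1.26 times the limits. After normalization it was 0.09 ± 0.036 above untransfected with GFP and 0.17 ± 0.04 with DKK3. The DKK3 difference lies above the 0.10 that bounds 97.5% of like-bright probes from above, and it was 0.91 with the blanks subtracted and median scaling. The CXCL6 spot is printed beside that of the ephrin EFNA1, which read 750.4, 1131 and 1212 on the 3 arrays. Other spots beside it are MRPS12 at 897.6, 1031 and 879.9, BRD7 at 257.8, 288 and 268.7 and SEC14L1 at 192.6, 231.9 and 239.4. The CXCL5 spot lies beside the brighter RPS4X, at 9457, 9189 and 7918. The part of the neighbours in the CXCL6 value was not tested.

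CXCL5 (epithelial neutrophil-activating protein 78) read 44.69 untransfected, 34.38 with GFP and 40.43 with DKK3, against limits of 40.81, 33.8 and 36.58. On the GFP array it was 1.02 times the limit and no longer detected with 3 SD of the blanks. Its differences were -0.05 ± 0.032 for GFP and 0.04 ± 0.036 for DKK3 against untransfected, and 0.08 ± 0.036 between DKK3 and GFP. With the blanks subtracted and median scaling the same differences were -0.47, 0.18 and 0.65, and in the authors' deposited values -0.42, 0.00 and 0.42. The deposited CXCL5 values are whole numbers, 4, 3 and 4 on the untransfected, GFP and DKK3 arrays, so rounding bears on those differences. PPBP, a product of megakaryocytes and platelets, read 56.51, 48.57 and 48.08. Its differences were -0.01 ± 0.05 for GFP and -0.03 ± 0.054 for DKK3 against untransfected, and -0.02 ± 0.048 between DKK3 and GFP. The size of the CXCL5 differences thus rests on the processing, and at this brightness a change in CXCL5 or PPBP could go unseen.

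**Figure D3:**
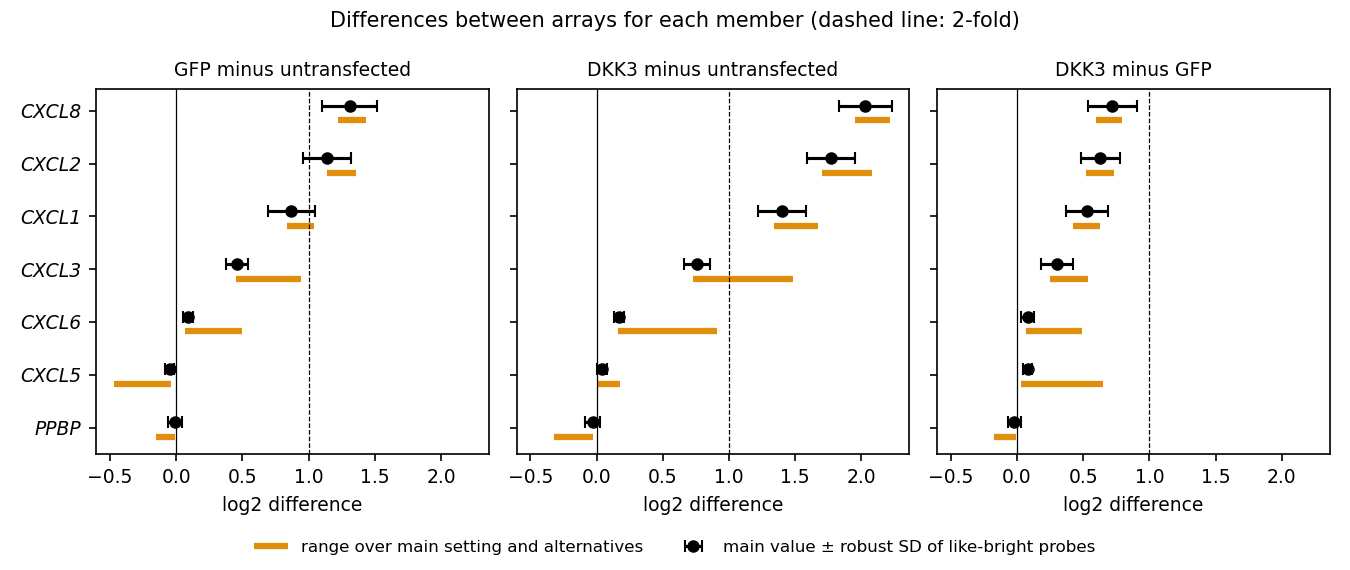
Black points are log2 differences between 2 arrays for each member, with bars of ± 1 robust SD over the 500 probes of like brightness, and orange bars span the main setting and 9 alternative ways of processing. Alternatives that changed only the detection limit or the printing blocks kept could not move these values. CXCL8, CXCL2, CXCL1 and CXCL3 stay above 0 over their whole ranges in each panel, and the wide orange bars of CXCL6 and CXCL5 belong to dim spots.

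Counted by a fixed size of 2-fold, 3 of the 7 members (CXCL8, CXCL2 and CXCL1) were higher with DKK3 than in untransfected cells, where 0.221% of 18121 probes were. With GFP 2 of 7 (CXCL8 and CXCL2) were higher than in untransfected cells, against 0.227% of 18076 probes. Between DKK3 and GFP 0 of 7 reached 2-fold, against 0.119% of 17579 probes higher and 0.137% lower. No member was 2-fold lower in any comparison, and the shares of all probes 2-fold lower were 0.0277% for GFP and 0.0717% for DKK3 against untransfected. Because the genes were picked with these arrays in view, the counts describe the members and test nothing.

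The median difference of the 7 members was 0.46 for GFP against untransfected (range -0.05 to 1.31, 5 of 7 above 0), where the median of all probes was -0.003 and 48.3% were above 0. For DKK3 against untransfected it was 0.76 (range -0.03 to 2.03, 6 of 7 above 0) against -0.005 over all probes with 47.0% above 0. For DKK3 against GFP it was 0.30 (range -0.02 to 0.72, 6 of 7 above 0) against -0.0013 with 49.1% above 0. The comparisons share arrays in pairs, so their values stand side by side and are not independent of one another.

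**Figure D4:**
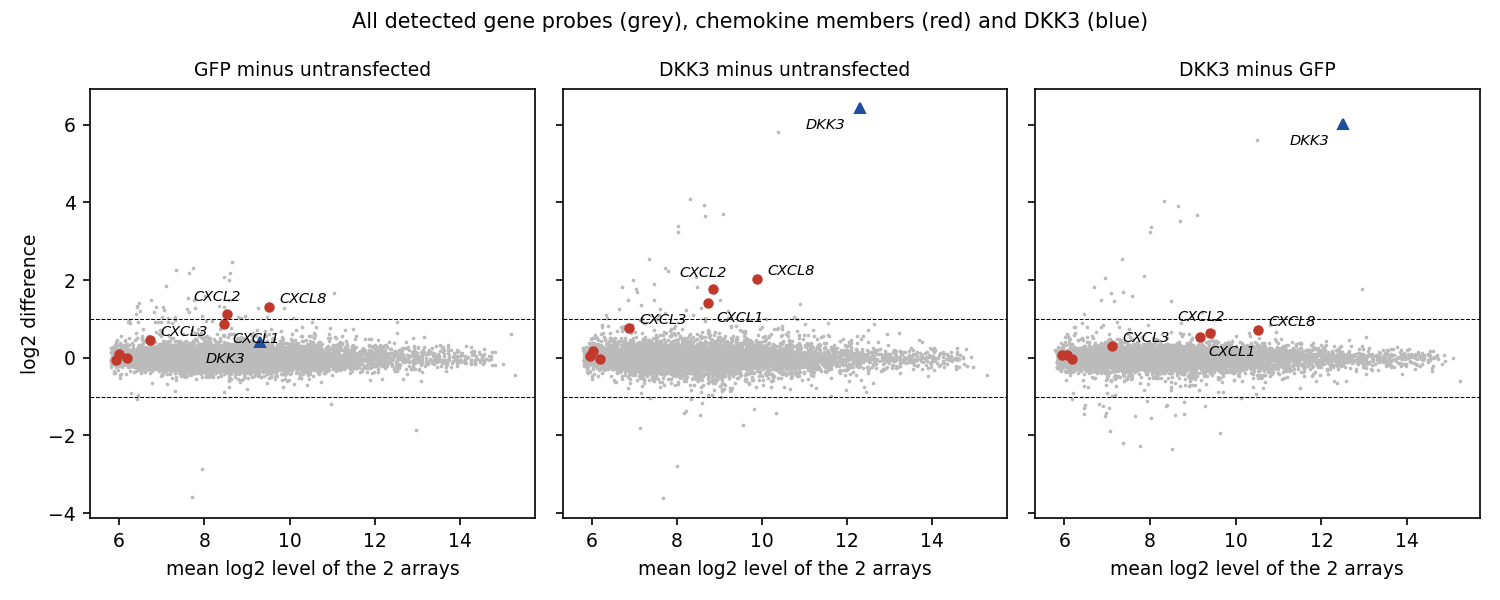
Each panel plots the log2 difference between 2 arrays against the mean log2 level for all detected gene probes (grey), the 7 members (red) and DKK3 (blue triangle), with dashed lines at 2-fold. CXCL8, CXCL2 and CXCL1 lie above the dashed line for DKK3 minus untransfected and below it for DKK3 minus GFP, where DKK3 itself stands at 6.01.

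The 7 genes lie in a single stretch of chromosome 4, in the RefSeq order CXCL8, CXCL6, PF4V1, CXCL1, PF4, PPBP, CXCL5, CXCL3 and CXCL2. CXCL8 stands at an end of this order, CXCL1 in the middle, and CXCL3 and CXCL2 next to each other at the other end. Of the genes between them, PF4V1, a variant of the platelet chemokine PF4, read 114.1, 146.1 and 126.2 on the untransfected, GFP and DKK3 arrays, with differences from untransfected of 0.34 with GFP and 0.26 with DKK3. PF4 read 41.51, 33.45 and 35.98 and was detected on the untransfected array alone. Among the 4 protein-coding genes on either side, differences of DKK3 from untransfected ran from -0.13 to 0.31, both ends of this range being probes of RASSF6. The EGFR-family ligands EPGN and EREG, on the CXCL2 side, were at 0.23 and 0.13, and AREG was not among the named probes used here.

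Of the receptors through which these chemokines act, CXCR2 was not detected. It read 35.75, 27.23 and 30.58 on the untransfected, GFP and DKK3 arrays, below all 3 limits, and CXCR1 was not among the named probes used here. In a list of receptors and scavengers 4 of 5 probes were detected, none at 2-fold in any comparison, with medians of 0.045 for GFP and 0.026 for DKK3 against untransfected. The chemokine-binding proteoglycan SDC1 stood at -0.28 and -0.29, its relative SDC4 at 0.21 and 0.18, the receptor GPR35 at 0.06 and 0.03 and the scavenger ACKR1 at 0.03 and 0.02.

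None of the other chemokines on these lists reached 2-fold with normexp and quantile normalization, where the added offset makes differences of dim probes smaller. Their differences with the blanks subtracted were not tested, so this holds for that processing only. Of 12 probes for other CXC, CX3C and XC chemokines 7 were detected on the untransfected or the DKK3 array, 0 at 2-fold, with a median of 0.041 for DKK3 against untransfected. CXCL10, an interferon-induced ligand of CXCR3 on T cells, read 36.55 on the untransfected array, below the limit, 45.91 with GFP and 51.43 with DKK3. Its differences of 0.40 and 0.49 were the largest of the list. Against the lowest detected level of the untransfected array it was at least 1.22-fold higher with GFP and at least 1.30-fold higher with DKK3. Both bounds include the offset and are therefore low for so dim a probe. The blank means were 36.31 on the untransfected, 28.07 on the GFP and 32.12 on the DKK3 array. CXCL10 thus lay at the blanks in untransfected cells and above the limit on both transfected arrays. CXCL16, which binds CXCR6, was at 0.16 with GFP and 0.21 with DKK3 against untransfected, and the lymphocyte chemokine XCL1 at 0.02 and -0.07. CC chemokines, which act mainly on monocytes, lymphocytes and eosinophils, had a median of -0.011 over 10 detected probes of 13, with 3 above 0 and 0 at 2-fold. CCL20, a ligand of CCR6, stood highest at 0.22 with GFP and 0.32 with DKK3. It read 45.09, 47.99 and 53.29 on the untransfected, GFP and DKK3 arrays, near the limits, where the offset makes differences smaller. CCL26, CCL3 and CCL28 were at 0.11, -0.08 and -0.18 with DKK3.

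Cytokines that epithelial cells often release with CXCL8 held the largest differences among the listed genes. Of 12 detected probes 11 were above 0 for DKK3 against untransfected with a median of 0.213, and 10 with a median of 0.123 for GFP. Over all probes 47.0% were above 0 and 0.221% at least 2-fold higher for DKK3, and 48.3% and 0.227% for GFP. The counts of every list are to be read beside these shares. CSF2 (GM-CSF) read 294.8, 659.3 and 787.6 on the untransfected, GFP and DKK3 arrays, higher than untransfected by 1.06 with GFP and 1.49 with DKK3. IL6 read 72.44, 166.1 and 194 and was higher by 1.04 and 1.36. These were the 2 probes of the list at 2-fold in both comparisons with untransfected cells. The adhesion molecule ICAM1, to which neutrophils bind, was at 0.42 and 0.65, and the cytokine IL24 at 0.24 and 0.62.

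Secreted inducers of the chemokines were mixed. Of 12 detected probes 9 were above 0 for DKK3 against untransfected (median 0.092) and 1 was at 2-fold. That probe was HBEGF, a ligand of EGFR, at 178.4, 275.4 and 396.1 on the untransfected, GFP and DKK3 arrays and higher with DKK3 by 1.22. TNF was at 0.66 with GFP and 0.85 with DKK3, and IL1A at 0.31 and 0.65. IL1B read 2131, 2217 and 1105 and stood at -0.02 and -0.81, on a spot in block 23. Of the 13 probes that were 2-fold lower on the DKK3 array than untransfected, 12 lie in blocks 22 to 24, and the part of that region in the IL1B value was not tested.

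NF-κB pathway genes had smaller differences than CXCL8, CXCL2 and CXCL1. Among feedback inhibitors, which NF-κB induces and which restrain it, 5 of 7 detected probes were above 0 for DKK3 against untransfected, with a median of 0.183 and 1 at 2-fold. TNFAIP3 (A20) read 396.2, 594.1 and 752 on the 3 arrays and was higher than untransfected by 0.51 with GFP and 1.03 with DKK3. Its partner TNIP1 was at 0.19 and 0.45, TNIP2 at 0.13 and 0.18, and the inhibitor NFKBIE at 0.43 and 0.44. The probes below 0 with DKK3 were NFKBIA, at 0.20 and -0.04 in block 24, and CYLD, at 0.04 and -0.13 in block 22. Subunits and kinases had a median of 0.062 over 18 probes, 13 above 0 and 0 at 2-fold. RELB was at 0.45, NFKB1 at 0.39, and the probes of the nuclear cofactor NFKBIZ at 0.28 and 0.38 for DKK3 against untransfected. The 2 probes of REL disagreed, at -0.54 in block 22 and -0.01 in block 14.

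AP-1 and C/EBP factors had a median of 0.067 over 11 probes for DKK3 against untransfected, with 6 above 0 and 0 at 2-fold. ATF3, a stress-induced member, was at 0.53, FOS at 0.46, CEBPB at 0.31 and JUN at 0.28. Upstream receptors and adaptors had a median of 0.006 over 21 probes, 13 above 0 and 0 at 2-fold. TLR2 was at 0.32, 1 probe of the IL-1 antagonist IL1RN at 0.22 and the other at -0.09, the detected probe of the TLR3 adaptor TICAM1 at 0.18 and the kinase IRAK2 at 0.14. Factors of mRNA decay had a median of 0.038 over 13 probes, 8 above 0 and 0 at 2-fold. The endonuclease ZC3H12A (regnase-1) was at 0.39, and ZFP36L1, which binds AU-rich elements, at 0.38 on 1 probe and -0.04 on the other. ZFP36L2 was at -0.21 and TIA1 at 0.16.

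**Figure D5:**
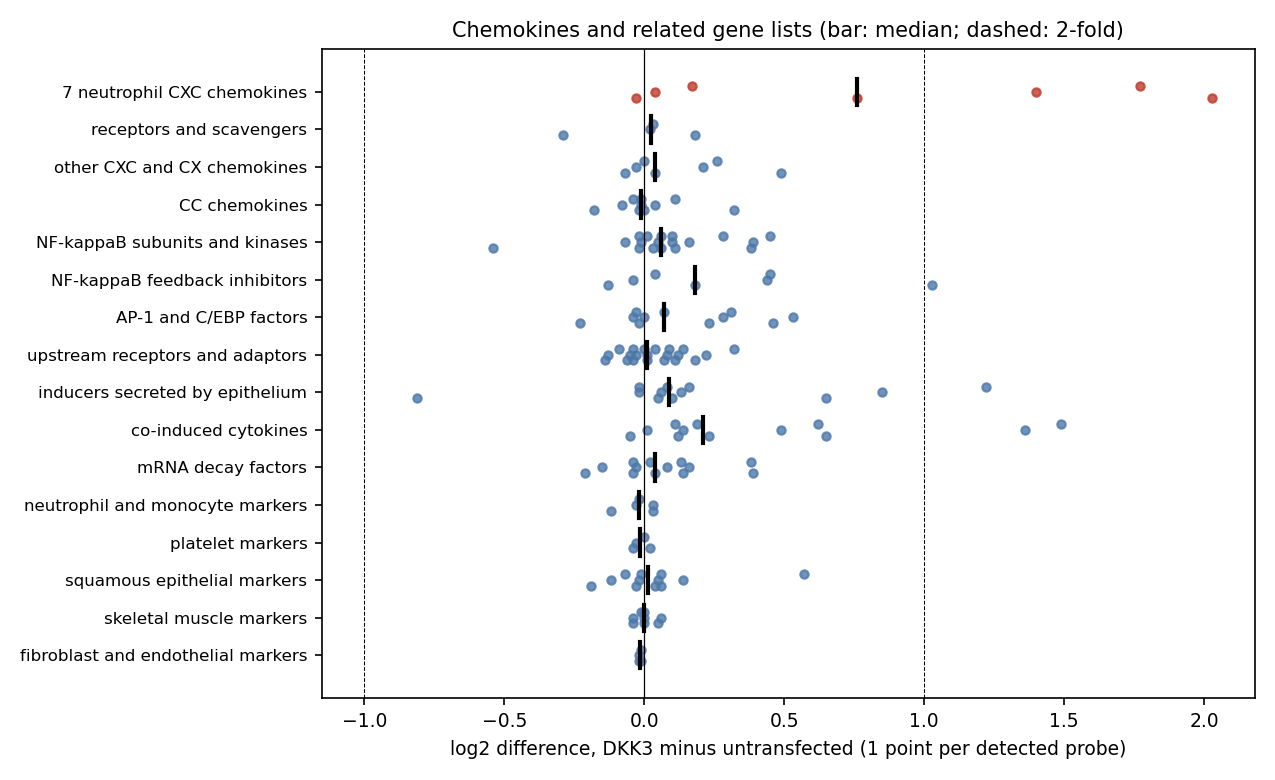
Points are log2 differences of single detected probes between the DKK3 and untransfected arrays, by gene list, with the median as a black bar and dashed lines at 2-fold. The 7 chemokines (red) reach 2.03, and outside them points beyond 1 are CSF2 and IL6 among the co-induced cytokines, HBEGF among the secreted inducers and TNFAIP3 among the feedback inhibitors.

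Likeness to CXCL8 was measured as the Euclidean distance over the 3 arrays between log2 levels after each probe's own mean was subtracted, among 14543 named probes detected on all arrays. The nearest genes were CXCL2 at 0.19, CSF2 at 0.38, CXCL1 at 0.46, IL6 at 0.48 and the interferon-induced IFIT2 at 0.62. IFIT2 was 1.25 above untransfected on both transfected arrays and differed by -0.01 between DKK3 and GFP, where CXCL8 differed by 0.72. CXCL3 lay at 0.91, CXCL6 at 1.34, CXCL5 at 1.44 and PPBP at 1.48.

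Nearest to the mean of the 7 members were EFNA1 and the stress factor DDIT3, both at 0.06, and the activin subunit INHBA, the NF-κB-induced apoptosis inhibitor BIRC3 and CXCL3, all at 0.08. CXCL3 is itself part of that mean, which brings it nearer. EFNA1 was higher than untransfected by 0.49 with GFP and 0.80 with DKK3, DDIT3 by 0.57 and 0.96, INHBA by 0.43 and 0.83 and BIRC3 by 0.43 and 0.81. With 3 arrays a distance describes the shape of 2 differences only.

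Markers of other cells that can make or carry these chemokines were partly detected, and none reached 2-fold in any of the 3 comparisons with this processing. Over all 24454 gene probes, 18012 were detected on the untransfected, 17226 on the GFP and 17352 on the DKK3 array. The detected counts of the markers are to be read beside these. Of 11 neutrophil and monocyte probes 5 were detected on each array. Their summed intensity above the blanks was 378 untransfected, 382 with GFP and 316 with DKK3, most of it from the integrin subunit ITGB2, at 283.8, 267.5 and 236.3. CSF3R read 98.29, 95.58 and 86.42 and CD14 74.13, 72.99 and 67.88, and ELANE and LYZ were also detected, while PTPRC (CD45), MPO, ITGAM, FPR1 and S100A12 were below the limit on all 3 arrays. Of 7 platelet probes 4, 2 and 3 were detected, with sums of 40.5, 36.5 and 29.6. Squamous epithelial markers were detected on 12 of 12 probes, KRT5 at 16548, 16709 and 12229 and KRT14 at 8103, 8728 and 7317, with a median of 0.014 for DKK3 against untransfected. Muscle markers were read because the treatment label names the mouse muscle line C2C12. Of 10 skeletal muscle probes 8, 7 and 7 were detected, with sums above the blanks of 157, 172 and 136. DES read 102.4, 106.2 and 91.14 and the brighter CKM probe 68.76, 67.14 and 63.23, MYOG was detected on all 3 arrays and MYOD1 on the untransfected array alone, and MYF5 was below all limits. Of 11 fibroblast and endothelial probes 4 were detected on each array, with sums of 222, 226 and 191. In bulk RNA more cells expressing a gene and more RNA per cell cannot be told apart.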

How the data were processed

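RNA of each culture was amplified, labelled with Cy5 and hybridised to a 1-colour oligonucleotide array, per the labels' protocols. The scanner files deposited by the authors give the median intensity of each spot, with 3 gain settings joined through least-squares fits, per the file headers. The sources used here do not name the scanner software. The series table deposited by the authors holds processed intensity on a linear scale. From its values it is a straight line of the spot intensity (residuals up to 0.511) that reaches 0 near the blank mean, with a median of 25 on each array.

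Spot intensities were corrected with normexp (offset 50) in limma 3.58.1 (R 4.3.3), controls and 6 flagged gene probes were left out, and 24454 probes were quantile normalized and taken to log2. Blank spots used numbered 2674. Symbols came from the platform annotation and were updated through RefSeq: 20231 probes had 1 symbol, 0 several and 4223 none. A call needed a log2 difference of at least 1 and detection on at least 1 of the 2 arrays. With 1 array per group no test was run. The code was tested on simulated data, with known changes set on the DKK3 array for probes well above the blanks. A true 2-fold rise was called against GFP in 14% of 50 probes, with a median log2 difference of 0.907. A true 4-fold rise was called in 100% of 50. The simulated noise was smaller than the spread between the real DKK3 and GFP arrays at the brightness of CXCL1, CXCL2 and CXCL8. There the robust SD was 0.159, 0.150 and 0.183. The changed probes were also brighter above the blanks than CXCL3, CXCL5, CXCL6 and PPBP. These call rates therefore need not hold for the members. Counts at 2-fold can thus miss changes near that size. Upstream stretches were aligned in Biopython 1.88.

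The members, lists and rules were chosen with earlier results of these data known. Named genes are the members, DKK3, up to 4 genes per list with the largest size of the DKK3 minus untransfected difference, the 5 nearest genes by likeness, and the receptors, locus neighbours and markers given by level. NFKBIA and CYLD are named besides, as the detected feedback inhibitors that were lower with DKK3. The alternatives were a smaller offset, subtraction of the blanks together with median scaling, median scaling alone, cyclic loess, 3 SD or no detection limit, the authors' deposited values, position corrections and averaging of probes.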

Additional observations from a re-analysis of the deposited data

How the results depend on the processing

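CXCL8 and CXCL2 stayed 2-fold above untransfected with GFP and with DKK3, and CXCL1 with DKK3, in the main setting and all 9 alternatives run on single probes. Those alternatives that changed only the detection limit or the printing blocks kept could not move these values. The DKK3 differences from untransfected ranged from 1.95 to 2.22 (CXCL8), 1.70 to 2.08 (CXCL2), 1.34 to 1.67 (CXCL1) and 0.73 to 1.48 (CXCL3), and those from GFP from 0.60 to 0.79, 0.52 to 0.73, 0.42 to 0.63 and 0.25 to 0.54. CXCL3 passed 2-fold with DKK3 under an offset of 16 (1.08), the authors' deposited values (1.24) and blank subtraction with median scaling (1.48), and CXCL1 with GFP under the last of these (1.04). The members' medians for GFP minus untransfected, DKK3 minus untransfected and DKK3 minus GFP were 0.679, 1.081 and 0.401 with an offset of 16, 0.941, 1.480 and 0.629 with blanks subtracted and median scaling, and 0.752, 1.244 and 0.492 in the authors' values. Over all probes 136, 177 and 146 were at 2-fold with blanks subtracted and median scaling (main setting 46, 53 and 45), 230, 448 and 190 in the authors' values, and 91 for DKK3 minus untransfected with an offset of 16. In the authors' values the all-probe median was -0.222 for GFP and -0.261 for DKK3 against untransfected (main setting -0.003 and -0.005). The balance turned from 41 higher and 5 lower to 81 and 149 for GFP, and from 40 and 13 to 94 and 354 for DKK3. Those values have a median of 25 over the probes listed for each array, which number 19501 untransfected, 18457 with GFP and 18386 with DKK3. The cause of the shift was not tested. No paired analysis was possible because each group is 1 array. Depth is not defined for arrays, and brightness over the blanks limits CXCL5, CXCL6 and PPBP.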

Other observations

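A second brightness column of the scanner files, headed as a background, followed the spot column with correlations of log2 values across probes from 0.9934 to 0.9976 and was not subtracted. An alternative chosen after seeing the data took it in place of the spot column. CXCL8 read 456.2 untransfected, 1216 with GFP and 1802 with DKK3 in it, and CXCL3 71.15, 82.12 and 121.2. After blank subtraction and median scaling CXCL3 stood at 0.81 with GFP and 1.55 with DKK3 against untransfected, and CXCL1 at 1.20 with GFP. The dim members took other signs there, with CXCL5 at -0.43 for DKK3 against untransfected and CXCL6 at -0.12 for DKK3 against GFP. The column comes from the same scans and is no replicate.

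The CXCL5 spot is printed 4 blocks after the CXCL6 spot, in the same column and row, and the CX3CL1 spot a further 4 blocks on. The spots around CXCL8 did not share its pattern: next in the row were an unnamed probe at 36.76, 29.84 and 33.57 and HSD11B1L at 56.15, 44.99 and 45.32 on the untransfected, GFP and DKK3 arrays, and above and below it TTPA at 35.20, 27.28 and 31.51 and MTRF1 at 142.1, 120.3 and 114.6.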
